A study of Arabidopsis thaliana with 10 samples.

Results

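The jasmonate synthesis, JAZ and MYC genes are 35 loci of Arabidopsis thaliana that were chosen by locus identifier, for their known roles in making, breaking down and sensing the hormone jasmonate, from the 33557 genes of the deposited tables. RNA was sequenced from whole seedlings of the Columbia ecotype, 4 days old and grown in constant blue light at a fluence rate of 1 µmol m-2 s-1. There were 5 genotypes with 2 biological replicates each, 10 libraries in all: wild type (WT), the cry2-1 mutant of the blue light receptor cryptochrome 2, CRY2oe with cryptochrome 2 overexpressed, UBP13oe with the ubiquitin-specific protease UBP13 overexpressed, and ubp12ubp13, a double mutant of UBP12 and UBP13. Which promoter drives each overexpression, and whether the replicates came from separately grown batches of seedlings, is not stated in the labels used here, so p-values measure the spread between these libraries. In whole seedlings, fewer cells of a type and less RNA per cell cannot be told apart.

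Jasmonate is made from linolenic acid of plastid membranes. A lipoxygenase (LOX), allene oxide synthase (AOS) and allene oxide cyclase (AOC) act in turn in the plastid, and the reductase OPR3 and acyl-CoA oxidases such as ACX1 finish the molecule in the peroxisome, after which JAR1 joins it to isoleucine. The conjugate is bound by the F-box protein COI1 together with a JAZ repressor, the JAZ protein is degraded, and the transcription factors MYC2, MYC3 and MYC4 are released to activate genes that include JAZ genes and genes of jasmonate synthesis itself.

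Levels are in FPKM, mapped fragments scaled to transcript length and library size, as the authors deposited them. Fold changes are differences in log2(FPKM + 1) between genotype means, each with its standard error and n = 2 libraries a genotype, and they understate the change of low genes. A gene was called higher or lower at a limma adjusted p under 0.05, adjusted over all genes tested. Library depth, estimated from the smallest FPKM steps, ran from 15.9 to 31.3 M fragments. The targeted gene CRY2 was at 109.8 and 120.0 FPKM in WT, 0 and 0.0187 in cry2-1 and 3923 and 3808 in CRY2oe, while the related receptor gene CRY1 was at 91.3 and 99.4 in WT and 79.7 and 81.4 in cry2-1. UBP13 was at 27.1 and 28.3 FPKM in WT and 69.0 and 66.1 in UBP13oe. In the libraries labelled ubp12ubp13, UBP13 was at 24.2 and 23.6 FPKM. UBP12 was at 35.013 and 34.8 FPKM in WT but at 397 in replicate 1 labelled ubp12ubp13, and its estimate in replicate 2 was marked as failed. The FPKM of a gene do not show whether its transcripts are intact, so these levels do not check the label. In the text and figures ubp12ubp13 therefore means the libraries labelled so, and every direction given for it rests on the label alone.

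Of the 35 loci, 30 reached 1 FPKM in at least 2 libraries and were tested. LOX4, JAZ5 and JAZ8 stayed under 1 FPKM in every library, the methyltransferase gene JMT was at 0 to 0.0556 FPKM, and the lipase gene DAD1 was listed at 0 in all 10. LOX2, LOX3 and CYP94C1 were tested only because of the genotypes in which they were high, so counts over the tested genes are descriptions and no p-value is given for these 3. An F test across the 5 genotypes called 26 of the 30, beside 77.6% of all genes tested. LOX2, LOX3 and CYP94C1 are among the 26.

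Against WT, ubp12ubp13 had the most jasmonate genes called. There 17 of 30 were higher (56.7%) and 4 were lower (13.3%), beside 34.6% higher and 22.2% lower among all genes. Without LOX2, LOX3 and CYP94C1 the counts were 14 and 4 of 27. The median log2 fold change was 0.21 for the 30 and 0.09 for all genes. The 17 higher genes were 8 of synthesis, from lipoxygenase to OPR3, JAZ1, JAZ2, JAZ6, JAZ9 and JAZ10, and also JAR1, CYP94C1, MYC4 and VSP2, and the lower ones were JAZ3, JAZ7, MYC3 and VSP1.

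In UBP13oe 13 of 30 were higher than in WT (43.3%) and 0 were lower in limma, with 17 and 0 at an unadjusted p under 0.05, beside 35.2% and 8.74% of all genes called. Without LOX2, LOX3 and CYP94C1, 12 of 27 were higher. The median of the 30 was 0.26, against 0.15 for all genes. In cry2-1, 5 were higher and 1 was lower, beside 31.7% and 11.8% of all genes, and the medians were 0.17 and 0.12. In CRY2oe, 3 were higher and 2 were lower, beside 16.5% and 9.63%, with medians of 0.04 and 0.05. The shares in these 3 genotypes were near or below those of all genes, apart from the higher share in UBP13oe.

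The remaining comparisons set the opposed genotypes side by side. CRY2oe had 1 gene higher and 7 lower than cry2-1, beside 13.5% and 24.0% of all genes. The labelled double mutant had 8 higher and 9 lower than UBP13oe, beside 20.8% and 32.1%. Without LOX2, LOX3 and CYP94C1 these counts were 6 and 9 of 27. Both comparisons share libraries with those against WT.

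The FPKM scale itself moved between genotypes. Dividing each library by a median-of-ratios size factor took the median of all genes in cry2-1 against WT from 0.12 to -0.01, and in UBP13oe against WT from 0.15 to 0.00. After that rescaling, 5 jasmonate genes were higher and 6 lower in cry2-1. The counts were 3 and 4 for CRY2oe, 9 and 2 for UBP13oe, and 13 and 7 for ubp12ubp13. CRY2oe against cry2-1 then had 4 and 6, and ubp12ubp13 against UBP13oe 9 and 9. For all genes the rescaled shares were 16.1% higher and 20.7% lower in cry2-1, 10.4% and 15.7% for CRY2oe, 17.2% and 19.9% for UBP13oe, 26.9% and 29.2% for ubp12ubp13, 17.4% and 17.1% for CRY2oe against cry2-1, and 25.3% and 27.0% for ubp12ubp13 against UBP13oe. Calls that this rescaling removed were JOX2, JAZ4, MYC2 and MYC3 in UBP13oe and LOX6, JAR1, JAZ2 and JAZ9 in ubp12ubp13, each against WT, and OPR3 in CRY2oe against cry2-1. It added lower calls for AOS (-0.29, limma adjusted p = 0.0331), JAR1, JAZ3, JAZ12 and MYC4 in cry2-1, MYC2 and MYC4 in CRY2oe, ACX1 and JAZ9 in UBP13oe, and CYP94B3, JAZ11 and JAZ12 in ubp12ubp13, each against WT. Between the mutants and overexpressors it added higher calls for AOS, AOC3 and JOX2 in CRY2oe against cry2-1 and for AOS in ubp12ubp13 against UBP13oe.

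**Figure D1:**
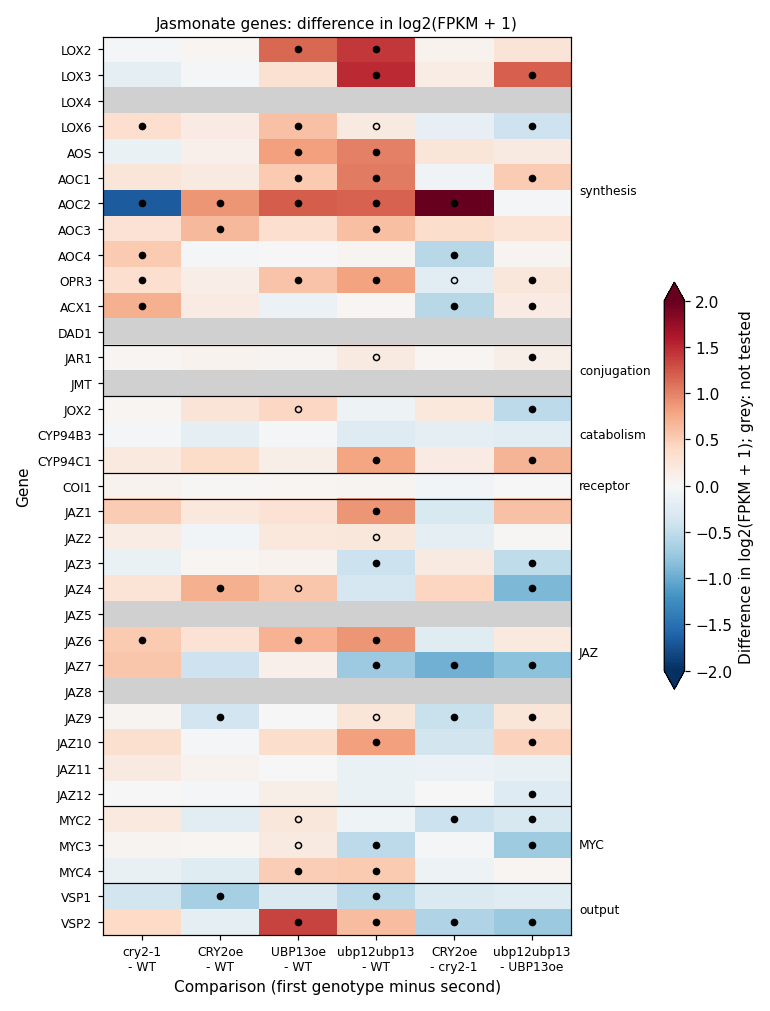
Log2 fold change of each jasmonate gene (rows, by role) in the 6 comparisons (columns), with colour for the difference in log2(FPKM + 1), darkest beyond the ends of the scale, as for AOC2 in CRY2oe against cry2-1 (2.55). Filled dots mark calls at a limma adjusted p under 0.05, open dots mark calls lost after rescaling and grey marks genes that were not tested. The column for ubp12ubp13 against WT holds the most dots, 17 higher and 4 lower.

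The lipoxygenases, which add oxygen to linolenic acid, separated in level and pattern. LOX6 (AT1G67560, chromosome 1, 25319899 to 25324264, a lipoxygenase of the wound response) was the only lipoxygenase above 3 FPKM in every library, with 10.5 and 10.2 FPKM for WT, 13.8 and 12.7 for cry2-1, 11.6 and 11.9 for CRY2oe, 15.6 and 16.6 for UBP13oe and 12.1 and 11.5 for ubp12ubp13. It was higher than in WT in cry2-1 (0.33 ± 0.06, limma adjusted p = 0.00368), in UBP13oe (0.59 ± 0.06, limma adjusted p = 0.000332) and slightly in ubp12ubp13 (0.17 ± 0.06, limma adjusted p = 0.0427), where the call was lost without any library other than cry2-1 replicate 1 and cry2-1 replicate 2 (limma adjusted p of up to 0.174). After rescaling the difference in cry2-1 was 0.19, limma adjusted p = 0.0422. The UBP13oe libraries did not overlap with those of any other genotype, and ubp12ubp13 was lower than UBP13oe (-0.42 ± 0.06, limma adjusted p = 0.000767).

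LOX2 (AT3G45140, chromosome 3, 16525410 to 16529352), the lipoxygenase behind most jasmonate of wounded leaves, was near the detection floor in 3 genotypes. It was at 0.0733 and 0.0269 FPKM for WT, 0.0281 and 0.0292 for cry2-1, 0.111 and 0.0547 for CRY2oe, 0.953 and 1.77 for UBP13oe and 1.59 and 2.02 for ubp12ubp13. The 4 libraries of UBP13oe and ubp12ubp13 lay above the other 6 without overlap, and the differences from WT were 1.15 ± 0.18 in UBP13oe and 1.41 ± 0.18 in ubp12ubp13. These genotypes alone brought LOX2 past the filter, so the differences are a description. No ratio is given because the WT values correspond to only a few fragments.

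LOX3 (AT1G17420, chromosome 1, 5977411 to 5981480), also a lipoxygenase of the jasmonate route, was at 0.350 and 0.296 FPKM for WT, 0.148 and 0.195 for cry2-1, 0.331 and 0.275 for CRY2oe, 0.584 and 0.699 for UBP13oe and 2.70 and 2.78 for ubp12ubp13. The ubp12ubp13 libraries stood above all other 8. The difference was 1.50 ± 0.11 from WT and 1.19 ± 0.11 from UBP13oe. LOX3 passed the filter through these libraries alone and could not be tested without either of them, so this too is a description. Its close relative LOX4 ranged from 0.257 to 0.785 FPKM and was not tested at that filter. The 2 share 81.0% of their coding bases, so fragments of one may be counted in the other.

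AOS (AT5G42650, chromosome 5, 17097595 to 17099395) is a single gene in Arabidopsis and makes the allene oxide that the cyclases use. Its level was 16.1 and 16.2 FPKM for WT, 14.0 and 15.2 for cry2-1, 18.3 and 16.6 for CRY2oe, 27.8 and 31.1 for UBP13oe and 36.3 and 31.2 for ubp12ubp13. UBP13oe and ubp12ubp13 lay above WT, cry2-1 and CRY2oe without overlap, at 29.5 ± 2.31 against 16.2 ± 0.0716 FPKM in UBP13oe and WT and at 33.7 ± 3.61 against 16.2 ± 0.0716 FPKM in ubp12ubp13 and WT (± SD). Both differences passed the test, at 0.82 ± 0.09, limma adjusted p = 0.000333 and 1.01 ± 0.09, limma adjusted p = 3.29e-05, and both kept the call without each library in turn. In cry2-1 the difference from WT was -0.14 ± 0.09, limma adjusted p = 0.232, and in CRY2oe it was 0.10 ± 0.09, limma adjusted p = 0.416.

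The cyclase genes AOC1, AOC2 and AOC3 stand next to each other on chromosome 3 and AOC4 is on chromosome 1. All 4 encode the enzyme that fixes the stereochemistry of the ring. AOC2 (AT3G25770, chromosome 3, 9406873 to 9407955) had the widest range in log2(FPKM + 1) among the tested synthesis genes at 5 FPKM or more in WT. It was at 5.98 and 5.90 FPKM for WT, 0.910 and 1.49 for cry2-1, 11.2 and 12.3 for CRY2oe, 13.8 and 16.4 for UBP13oe and 17.2 and 12.6 for ubp12ubp13. Its lowest libraries were both of cry2-1 and its WT libraries came next, below the other 6. AOC2 was lower in cry2-1 than in WT (-1.67 ± 0.17, limma adjusted p = 0.000167), a ratio of means of 0.202, and higher in CRY2oe (0.88 ± 0.17, limma adjusted p = 0.00779), in UBP13oe (1.21 ± 0.17, limma adjusted p = 0.000962) and in ubp12ubp13 (1.18 ± 0.17, limma adjusted p = 0.000461). The CRY2oe call was lost without CRY2oe replicate 2 (limma adjusted p of up to 0.0536). Between CRY2oe and cry2-1, which have cryptochrome 2 overexpressed and mutated, AOC2 differed by 2.55 ± 0.17, limma adjusted p = 1.7e-05, at 11.8 ± 0.787 against 1.1998 ± 0.410 FPKM.

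AOC1 (AT3G25760, chromosome 3, 9403883 to 9405250) did not share the low level of cry2-1. It was at 3.71 and 4.11 FPKM for WT, 4.49 and 5.14 for cry2-1, 4.10 and 5.04 for CRY2oe, 5.84 and 6.25 for UBP13oe and 9.82 and 8.38 for ubp12ubp13. It was higher than in WT in UBP13oe (0.52 ± 0.11, limma adjusted p = 0.00728) and in ubp12ubp13 (1.04 ± 0.11, limma adjusted p = 0.000118), and ubp12ubp13 was higher than UBP13oe (0.52 ± 0.11, limma adjusted p = 0.00555). The coding sequences of AOC1 and AOC2 share 90.3% of their bases, so how fragments were split between them is uncertain. Their summed level was 9.69 and 10.01 FPKM for WT, 5.39 and 6.63 for cry2-1, 15.3 and 17.4 for CRY2oe, 19.6 and 22.7 for UBP13oe, and 27.0 and 21.0 for ubp12ubp13. The sum was lowest in the cry2-1 libraries, as AOC2 alone was.

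AOC3 (AT3G25780, chromosome 3, 9409290 to 9410567) was at 3.79 and 4.02 FPKM for WT, 5.69 and 4.42 for cry2-1, 6.70 and 6.70 for CRY2oe, 5.34 and 5.01 for UBP13oe and 7.20 and 5.77 for ubp12ubp13. CRY2oe was higher than WT (0.65 ± 0.12, limma adjusted p = 0.00769) and so was ubp12ubp13 (0.60 ± 0.12, limma adjusted p = 0.00329), while cry2-1 differed from WT by 0.29 ± 0.12, limma adjusted p = 0.0837. AOC4 (AT1G13280, chromosome 1, 4547454 to 4548875) was at 17.6 and 16.9 FPKM for WT, 26.5 and 24.3 for cry2-1, 16.3 and 17.6 for CRY2oe, 18.5 and 16.2 for UBP13oe and 18.4 and 17.7 for ubp12ubp13. The cry2-1 libraries of AOC4 stood above the other 8, higher than WT (0.53 ± 0.07, limma adjusted p = 0.00084), and CRY2oe was lower than cry2-1 (-0.56 ± 0.07, limma adjusted p = 0.000671). In cry2-1 against WT, AOC2 was therefore lower and AOC4 higher.

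**Figure D2:**
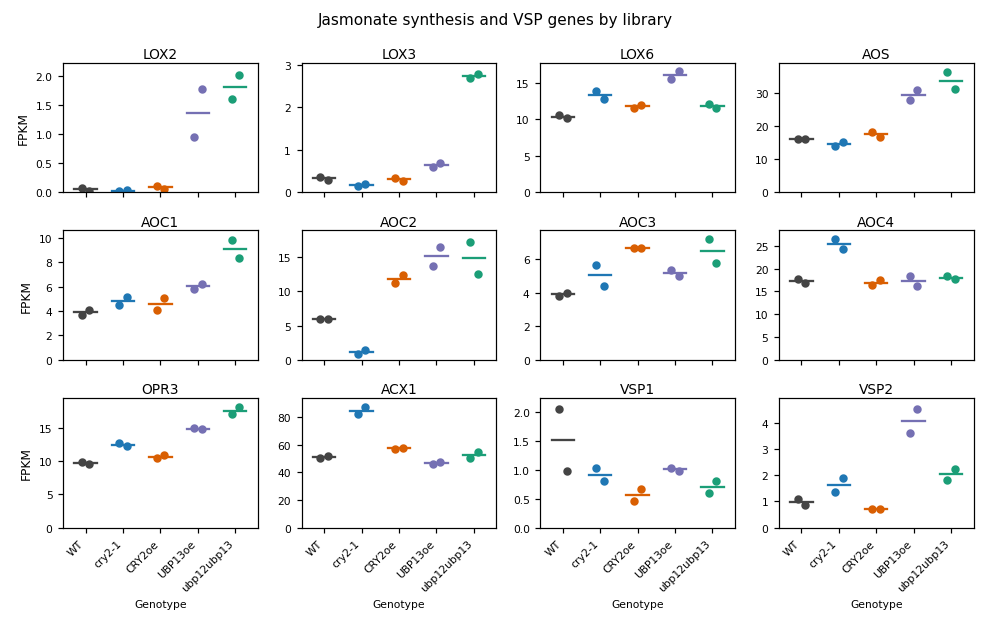
FPKM of the synthesis genes and of VSP1 and VSP2 in each library (points) with the mean of each genotype (bars), n = 2 libraries a genotype. In the panel for AOS the UBP13oe and ubp12ubp13 points lie above the rest, and in that for AOC2 the cry2-1 points are lowest, at 0.910 and 1.49 FPKM.

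The windows of 300 bases before the RefSeq gene start are shown for AOS, AOC1 and AOC2, as a pathway step encoded by a single gene beside neighbouring copies that differ in cry2-1, and for ACX1, the synthesis gene with the largest increase in cry2-1. MYC factors bind the G-box CACGTG and the related T/G-box AACGTG, which reads CACGTT on the opposite strand, and capitals mark matches to these letters on either strand. Sequences are from RefSeq, build TAIR10.1, written 5′ to 3′ on the strand of the gene. The windows are chr5:17099596-17099895 on the minus strand for AOS, chr3:9403479-9403778 on the plus strand for AOC1, chr3:9406369-9406668 on the plus strand for AOC2 and chr4:9428896-9429195 on the minus strand for ACX1.
AOS: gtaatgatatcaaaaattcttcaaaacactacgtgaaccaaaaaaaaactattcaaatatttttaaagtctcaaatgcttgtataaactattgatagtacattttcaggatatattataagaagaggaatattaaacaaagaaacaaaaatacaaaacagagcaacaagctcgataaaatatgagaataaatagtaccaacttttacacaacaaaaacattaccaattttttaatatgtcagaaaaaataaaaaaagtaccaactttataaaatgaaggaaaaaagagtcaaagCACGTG
AOC1: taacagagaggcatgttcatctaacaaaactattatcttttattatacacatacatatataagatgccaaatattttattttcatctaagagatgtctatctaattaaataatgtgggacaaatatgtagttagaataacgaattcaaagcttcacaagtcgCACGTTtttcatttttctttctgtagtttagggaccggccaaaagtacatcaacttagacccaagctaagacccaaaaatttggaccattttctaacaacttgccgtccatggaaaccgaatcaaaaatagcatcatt
AOC2: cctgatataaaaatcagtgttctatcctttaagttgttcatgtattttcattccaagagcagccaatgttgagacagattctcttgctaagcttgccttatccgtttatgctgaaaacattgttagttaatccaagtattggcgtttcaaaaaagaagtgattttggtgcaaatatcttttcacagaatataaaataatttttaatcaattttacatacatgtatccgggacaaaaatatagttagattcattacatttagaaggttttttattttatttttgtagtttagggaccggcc
ACX1: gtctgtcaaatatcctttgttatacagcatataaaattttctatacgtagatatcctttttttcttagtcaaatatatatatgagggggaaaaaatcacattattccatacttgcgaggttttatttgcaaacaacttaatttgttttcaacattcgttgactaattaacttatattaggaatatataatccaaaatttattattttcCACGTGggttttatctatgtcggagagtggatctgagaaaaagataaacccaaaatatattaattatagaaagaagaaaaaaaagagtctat

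The AOS window held a G-box whose first base lay 6 bases before the start, the AOC1 window a T/G-box at 138 bases and the ACX1 window a G-box at 92 bases. The AOC2 window held neither. Across the 35 loci, 6 windows (17.1%) held a G-box and 9 (25.7%) a T/G-box, beside 6.43% and 8.49% of the windows of 32809 genes. With the gene starts of the deposited files instead, the numbers were 11 (31.4%) for each motif, beside 7.46% and 8.77%. These are matches of letters in a window and say nothing of binding.

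The peroxisomal steps followed other patterns. OPR3 (AT2G06050, chromosome 2, 2359114 to 2362302) reduces the cyclic intermediate OPDA, and it was at 9.88 and 9.60 FPKM for WT, 12.8 and 12.3 for cry2-1, 10.5 and 10.9 for CRY2oe, 15.0 and 14.8 for UBP13oe and 17.1 and 18.2 for ubp12ubp13. It was higher than in WT in cry2-1 (0.34 ± 0.06, limma adjusted p = 0.00197), UBP13oe (0.57 ± 0.06, limma adjusted p = 0.000245) and ubp12ubp13 (0.80 ± 0.06, limma adjusted p = 1.06e-05). After rescaling the difference in cry2-1 was 0.19, limma adjusted p = 0.0267. The 6 libraries of these genotypes lay above all 4 libraries of WT and CRY2oe. The smaller differences between CRY2oe and cry2-1 (-0.21 ± 0.06, limma adjusted p = 0.0192) and between ubp12ubp13 and UBP13oe (0.23 ± 0.06, limma adjusted p = 0.00906) were lost, the first without cry2-1 replicate 1 or either CRY2oe library (limma adjusted p of up to 0.11) and the second without UBP13oe replicate 2 or ubp12ubp13 replicate 2 (limma adjusted p of up to 0.0572).

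ACX1 (AT4G16760, chromosome 4, 9424633 to 9428895) starts the shortening of the side chain and was the most abundant of the synthesis genes, at 50.4 and 51.8 FPKM for WT, 81.9 and 87.3 for cry2-1, 56.9 and 58.0 for CRY2oe, 46.1 and 47.8 for UBP13oe and 50.5 and 54.8 for ubp12ubp13. The cry2-1 libraries were above the other 8. They were higher than WT (0.72 ± 0.05, limma adjusted p = 4.39e-05) with a ratio of means of 1.66, and CRY2oe was lower than cry2-1 (-0.55 ± 0.05, limma adjusted p = 0.000122). CRY2oe differed from WT by 0.17 ± 0.05, limma adjusted p = 0.0516 and UBP13oe by -0.12 ± 0.05, limma adjusted p = 0.1. The ubp12ubp13 libraries were slightly above UBP13oe (0.16 ± 0.05, limma adjusted p = 0.0328), a call lost without either UBP13oe library or ubp12ubp13 replicate 2 (limma adjusted p of up to 0.189), and the fold change was 0.10 without ubp12ubp13 replicate 2.

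JAR1 (AT2G46370, chromosome 2, 19033741 to 19036659), which conjugates jasmonate to isoleucine and so makes the active form, was at 33.1 and 35.001 FPKM for WT, 35.1 and 34.5 for cry2-1, 36.0 and 35.2 for CRY2oe, 35.1 and 36.0 for UBP13oe and 38.4 and 39.3 for ubp12ubp13. It was slightly higher in ubp12ubp13 than in WT (0.19 ± 0.04, limma adjusted p = 0.00745), but not after rescaling (0.08, limma adjusted p = 0.131). Against UBP13oe the difference was 0.12 ± 0.04, limma adjusted p = 0.0449, lost without any library other than WT replicate 1 and WT replicate 2 (limma adjusted p of up to 0.183), and 0.19, limma adjusted p = 0.00525 after rescaling.

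Of the 3 genes of jasmonate breakdown, JOX2 (AT5G05600, chromosome 5, 1672120 to 1674739), an oxygenase that hydroxylates jasmonate, was at 21.1 and 24.3 FPKM for WT, 24.8 and 22.0 for cry2-1, 26.0 and 28.5 for CRY2oe, 30.6 and 30.4 for UBP13oe and 19.5 and 22.6 for ubp12ubp13. The UBP13oe libraries were the highest of the 10, higher than WT (0.41 ± 0.10, limma adjusted p = 0.00964), a call lost without WT replicate 1 (limma adjusted p of up to 0.0533) and after rescaling (0.24, limma adjusted p = 0.0714). The ubp12ubp13 libraries were lower than those of UBP13oe (-0.52 ± 0.10, limma adjusted p = 0.00232).

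CYP94C1 (AT2G27690, chromosome 2, 11809306 to 11811215), a cytochrome P450 that oxidises the isoleucine conjugate, was at 0.481 and 0.436 FPKM for WT, 0.847 and 0.518 for cry2-1, 0.942 and 0.824 for CRY2oe, 0.566 and 0.593 for UBP13oe and 1.60 and 1.45 for ubp12ubp13. Only the ubp12ubp13 libraries exceeded 1 FPKM, and they differed from WT by 0.79 ± 0.13 and from UBP13oe by 0.67 ± 0.13. These are a description, since both libraries were needed for the gene to pass the filter. CYP94B3, which hydroxylates the same conjugate, ranged from 5.36 to 7.97 FPKM and was called in none of the 6 comparisons (F test, limma adjusted p = 0.179).

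Expression of the receptor gene COI1 (AT2G39940, chromosome 2, 16672493 to 16675748) ranged from 17.6 to 20.02 FPKM, and the F test across genotypes did not call it (limma adjusted p = 0.8). Its difference from WT was 0.07 ± 0.06, limma adjusted p = 0.372 in cry2-1, 0.02 ± 0.06, limma adjusted p = 0.835 in CRY2oe, 0.04 ± 0.06, limma adjusted p = 0.588 in UBP13oe and 0.05 ± 0.06, limma adjusted p = 0.51 in ubp12ubp13. COI1 overlaps the locus AT2G39930, so its fragments are not certain to be its own.

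Among the JAZ repressors, which hold the MYC factors inactive, JAZ12 was the highest in every library and JAZ5 and JAZ8 the lowest. JAZ5 ranged from 0.104 to 0.409 FPKM and JAZ8 from 0 to 0.177. Of the 10 that were tested, 5 were higher in ubp12ubp13 than in WT (JAZ1, JAZ2, JAZ6, JAZ9 and JAZ10) and 2 were lower (JAZ3 and JAZ7), beside 34.6% and 22.2% of all genes. After rescaling the balance turned to 3 higher and 4 lower.

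JAZ6 (AT1G72450, chromosome 1, 27274065 to 27276317) was at 5.21 and 5.83 FPKM for WT, 9.29 and 7.57 for cry2-1, 7.15 and 6.75 for CRY2oe, 9.59 and 9.39 for UBP13oe and 10.5 and 11.5 for ubp12ubp13. All 6 libraries of cry2-1, UBP13oe and ubp12ubp13 lay above those of WT and CRY2oe. The differences from WT were 0.53 ± 0.10, limma adjusted p = 0.00332 in cry2-1, 0.69 ± 0.10, limma adjusted p = 0.00114 in UBP13oe and 0.88 ± 0.10, limma adjusted p = 0.000128 in ubp12ubp13, and all 3 kept the call without each library in turn and after rescaling.

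JAZ10 (AT5G13220, chromosome 5, 4218888 to 4220883), which is strongly induced by jasmonate in wounded plants, was at 1.41 and 1.48 FPKM for WT, 1.71 and 2.40 for cry2-1, 1.27 and 1.47 for CRY2oe, 2.09 and 2.17 for UBP13oe and 2.82 and 3.82 for ubp12ubp13. Both ubp12ubp13 libraries exceeded the other 8 and were higher than WT (0.81 ± 0.15, limma adjusted p = 0.00183). They were also higher than UBP13oe (0.45 ± 0.15, limma adjusted p = 0.0306), but that call was lost without either UBP13oe library or ubp12ubp13 replicate 2 (limma adjusted p of up to 0.188), with a fold change of 0.29 without ubp12ubp13 replicate 2. The cry2-1 libraries differed from WT by 0.31 ± 0.15, limma adjusted p = 0.119.

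JAZ1 (AT1G19180, chromosome 1, 6622094 to 6623620), an early jasmonate-induced repressor, was at 8.16 and 5.89 FPKM for WT, 9.69 and 11.0 for cry2-1, 9.25 and 7.23 for CRY2oe, 9.31 and 8.17 for UBP13oe and 10.2 and 18.1 for ubp12ubp13. The ubp12ubp13 libraries differed from each other, and only replicate 2 stood apart from the remaining 9. The call against WT (0.88 ± 0.24, limma adjusted p = 0.015) was lost without WT replicate 2 or ubp12ubp13 replicate 2 (limma adjusted p of up to 0.0896), with a fold change of 0.49 without ubp12ubp13 replicate 2, and the F test across genotypes gave a limma adjusted p of 0.0641. Some genes known for fast responses to touch and stress also differed between these libraries. In ubp12ubp13, the zinc finger gene ZAT10 was at 4.40 and 10.7 FPKM, the transcription factor gene WRKY40 at 3.47 and 8.06 and the zinc finger gene SZF1 at 13.9 and 23.7 in replicates 1 and 2. Of the 12 touch and stress genes looked at, 10 were tested, and 6 were higher and 1 was lower in ubp12ubp13 than in WT, beside 34.6% and 22.2% of all genes. The counts were 3 and 1 without WT replicate 1, 3 and 2 without ubp12ubp13 replicate 2, and 3 and 1 in a fit of the compared libraries alone. Their summed level was 271 and 296 FPKM in WT and 228 and 304 in ubp12ubp13, from 268 to 298 in the other genotypes, and none was listed at 0. Their part in the JAZ1 result was not tested.

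JAZ2 (AT1G74950, chromosome 1, 28148575 to 28150444) and JAZ9 (AT1G70700, chromosome 1, 26654768 to 26657064) were higher in ubp12ubp13 by small amounts. JAZ2 was at 13.1 and 14.5 FPKM for WT, 15.0 and 16.0 for cry2-1, 13.2 and 13.4 for CRY2oe, 15.4 and 16.8 for UBP13oe and 15.6 and 17.0 for ubp12ubp13, and JAZ9 was at 28.3 and 28.7 FPKM for WT, 30.1 and 28.9 for cry2-1, 22.1 and 20.9 for CRY2oe, 28.0 and 28.4 for UBP13oe and 31.7 and 35.8 for ubp12ubp13. Against WT the differences in ubp12ubp13 were 0.22 ± 0.07, limma adjusted p = 0.0302 for JAZ2 and 0.24 ± 0.06, limma adjusted p = 0.0113 for JAZ9, and neither held after rescaling. JAZ2 also lost the call without WT replicate 1 or ubp12ubp13 replicate 2 (limma adjusted p of up to 0.16), and JAZ9 without ubp12ubp13 replicate 2 (limma adjusted p of up to 0.067), with a fold change of 0.15.

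JAZ9 had its lowest libraries in CRY2oe, which did not overlap with any other genotype. CRY2oe was lower than WT (-0.39 ± 0.06, limma adjusted p = 0.00398) and lower than cry2-1 (-0.44 ± 0.06, limma adjusted p = 0.000903). The ubp12ubp13 libraries were higher than UBP13oe (0.25 ± 0.06, limma adjusted p = 0.00949), a call lost without ubp12ubp13 replicate 2 (limma adjusted p of up to 0.0547), with a fold change of 0.16.

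JAZ3 (AT3G17860, chromosome 3, 6119767 to 6123019) went the other way in ubp12ubp13, at 11.0 and 11.6 FPKM for WT, 9.72 and 10.8 for cry2-1, 11.6 and 11.8 for CRY2oe, 12.7 and 11.1 for UBP13oe and 7.60 and 8.63 for ubp12ubp13. Both ubp12ubp13 libraries lay below the other 8, lower than WT (-0.44 ± 0.09, limma adjusted p = 0.00296) and lower than UBP13oe (-0.50 ± 0.09, limma adjusted p = 0.00153). Its window of 300 bases is shown because it held both motifs, 2 G-boxes at 140 and 82 bases before the start and a T/G-box at 155 bases, next to a lower level in ubp12ubp13. It is chr3:6119407-6119706 on the plus strand, with capitals as above.
JAZ3: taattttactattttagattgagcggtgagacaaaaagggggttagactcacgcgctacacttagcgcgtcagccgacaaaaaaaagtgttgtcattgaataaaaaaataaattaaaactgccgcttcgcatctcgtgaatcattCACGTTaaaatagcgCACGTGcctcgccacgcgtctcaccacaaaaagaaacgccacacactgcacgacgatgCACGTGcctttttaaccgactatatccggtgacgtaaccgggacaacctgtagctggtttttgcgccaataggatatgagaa

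JAZ7 (AT2G34600, chromosome 2, 14573080 to 14573856), a short JAZ protein, was at 2.05 and 2.41 FPKM for WT, 2.60 and 5.23 for cry2-1, 1.55 and 1.30 for CRY2oe, 2.33 and 2.57 for UBP13oe and 1.09 and 0.807 for ubp12ubp13. Both ubp12ubp13 libraries lay lowest, lower than WT (-0.73 ± 0.23, limma adjusted p = 0.0242) and than UBP13oe (-0.82 ± 0.23, limma adjusted p = 0.0155), and the cry2-1 libraries differed widely from each other. By estimate, the ubp12ubp13 libraries held only 15.7 and 7.1 fragments of JAZ7. All 3 calls of JAZ7 rested on few libraries. The difference from WT was lost without WT replicate 2 or ubp12ubp13 replicate 2 (limma adjusted p of up to 0.112), that from UBP13oe without UBP13oe replicate 2 or ubp12ubp13 replicate 2 (limma adjusted p of up to 0.0808), and that between CRY2oe and cry2-1 (-0.97 ± 0.23, limma adjusted p = 0.0111) without CRY2oe replicate 2 (limma adjusted p of up to 0.0634). Without cry2-1 replicate 2 that fold change was -0.57 and still called.

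JAZ4 (AT1G48500, chromosome 1, 17931476 to 17934662) was at 1.74 and 2.07 FPKM for WT, 3.01 and 2.09 for cry2-1, 3.33 and 4.15 for CRY2oe, 3.17 and 3.35 for UBP13oe and 0.902 and 1.76 for ubp12ubp13. The difference between ubp12ubp13 and UBP13oe (-0.90 ± 0.20, limma adjusted p = 0.00521) held without each library in turn. The differences from WT in CRY2oe (0.70 ± 0.20, limma adjusted p = 0.0326) and UBP13oe (0.56 ± 0.20, limma adjusted p = 0.0485) did not. The first was lost without either WT library, either CRY2oe library or either UBP13oe library (limma adjusted p of up to 0.164) and the second without either WT library, either CRY2oe library or either UBP13oe library (limma adjusted p of up to 0.169).

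JAZ11 (AT3G43440, chromosome 3, 15367596 to 15370059) was at 12.5 and 14.0 FPKM for WT, 15.3 and 15.1 for cry2-1, 13.5 and 14.4 for CRY2oe, 12.7 and 14.1 for UBP13oe and 11.9 and 12.1 for ubp12ubp13, and it passed the F test (limma adjusted p = 0.0321) but none of the 6 comparisons. JAZ12 (AT5G20900, chromosome 5, 7090704 to 7092539) was at 63.1 and 67.7 FPKM for WT, 64.4 and 65.1 for cry2-1, 64.4 and 63.8 for CRY2oe, 67.4 and 74.6 for UBP13oe and 57.1 and 61.6 for ubp12ubp13. Its only call was a lower level in ubp12ubp13 than in UBP13oe (-0.25 ± 0.06, limma adjusted p = 0.00875), lost without UBP13oe replicate 2 or ubp12ubp13 replicate 1 (limma adjusted p of up to 0.0645). JAZ12 overlaps the locus AT5G20910, so its fragments are not certain to be its own.

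MYC2, MYC3 and MYC4, the bHLH factors that JAZ proteins hold back, did not move together in ubp12ubp13. All 3 were called higher in UBP13oe than in WT, but only MYC4 kept that call after rescaling. MYC3 (AT5G46760, chromosome 5, 18974231 to 18976009) was the highest of the 3 in every library, at 39.9 and 42.6 FPKM for WT, 43.1 and 42.9 for cry2-1, 42.7 and 41.8 for CRY2oe, 47.0 and 47.0 for UBP13oe and 27.1 and 29.9 for ubp12ubp13. The ubp12ubp13 libraries lay below all other 8, lower than WT (-0.52 ± 0.05, limma adjusted p = 9.43e-05) and lower than UBP13oe (-0.71 ± 0.05, limma adjusted p = 2.52e-05). The rise in UBP13oe over WT (0.19 ± 0.05, limma adjusted p = 0.0256) did not hold after rescaling (0.01, limma adjusted p = 0.871) and was lost without WT replicate 1 or either UBP13oe library (limma adjusted p of up to 0.12).

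MYC4 (AT4G17880, chromosome 4, 9933366 to 9935586) was at 10.7 and 12.0 FPKM for WT, 9.75 and 10.5 for cry2-1, 9.21 and 9.58 for CRY2oe, 15.5 and 17.2 for UBP13oe and 15.9 and 17.6 for ubp12ubp13. The 4 libraries of UBP13oe and ubp12ubp13 lay above the other 6 without overlap, higher than WT by 0.49 ± 0.08, limma adjusted p = 0.00242 and 0.52 ± 0.08, limma adjusted p = 0.000938. After rescaling the difference in UBP13oe was 0.33, limma adjusted p = 0.0139. In ubp12ubp13, MYC3 was thus lower and MYC4 higher than in WT, and both calls kept their side of the threshold without each library in turn and after rescaling.

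MYC2 (AT1G32640, chromosome 1, 11798810 to 11800988), the main activator of wound-responsive genes, was at 28.3 and 26.2 FPKM for WT, 31.3 and 31.5 for cry2-1, 24.2 and 22.0 for CRY2oe, 31.5 and 32.6 for UBP13oe and 23.5 and 27.5 for ubp12ubp13. CRY2oe was lower than cry2-1 (-0.43 ± 0.08, limma adjusted p = 0.00353), and all 4 libraries kept that order. The ubp12ubp13 libraries were lower than UBP13oe (-0.32 ± 0.08, limma adjusted p = 0.00961), a call lost without UBP13oe replicate 2 or ubp12ubp13 replicate 1 (limma adjusted p of up to 0.0557), with a fold change of -0.21 without ubp12ubp13 replicate 1. The difference of UBP13oe from WT (0.23 ± 0.08, limma adjusted p = 0.0479) was lost without any library other than ubp12ubp13 replicate 1 and ubp12ubp13 replicate 2 (limma adjusted p of up to 0.197) and after rescaling.

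**Figure D3:**
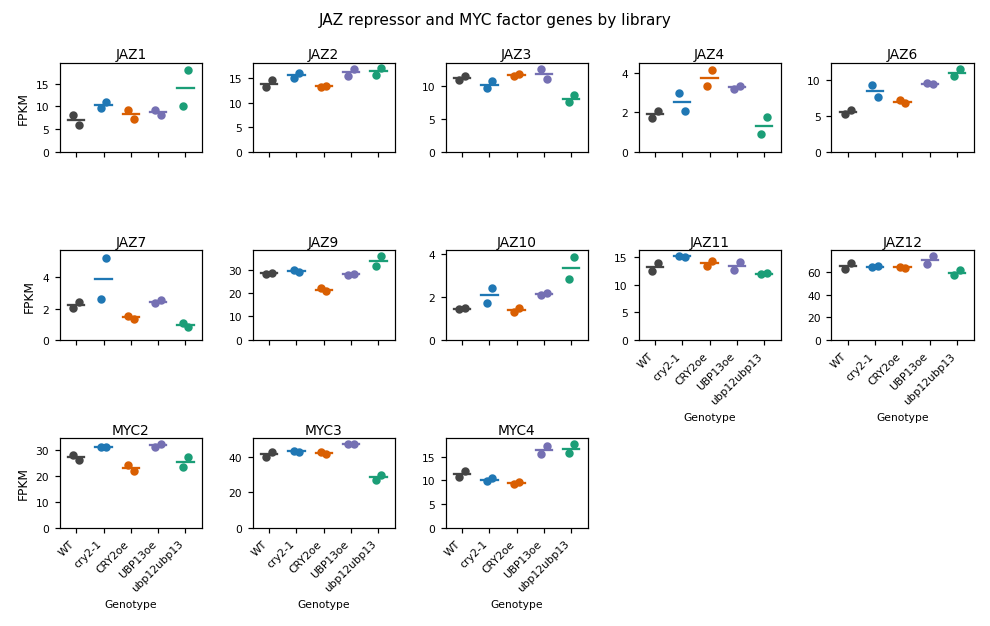
FPKM of 10 JAZ genes and of MYC2, MYC3 and MYC4 in each library (points) with the mean of each genotype (bars), n = 2 libraries a genotype. In the panels for JAZ6 and MYC4 the ubp12ubp13 points lie above WT, and in those for JAZ3 and MYC3 they lie below all others, at 27.1 and 29.9 FPKM for MYC3.

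The vegetative storage protein genes VSP1 and VSP2, common readouts of jasmonate signalling in leaves, were low in these seedlings. VSP2 (AT5G24770, chromosome 5, 8500476 to 8502224) was at 1.08 and 0.878 FPKM for WT, 1.35 and 1.87 for cry2-1, 0.724 and 0.715 for CRY2oe, 3.62 and 4.52 for UBP13oe and 1.83 and 2.25 for ubp12ubp13. The UBP13oe libraries were the highest of the 10. UBP13oe was higher than WT (1.35 ± 0.14, limma adjusted p = 0.000333), and so was ubp12ubp13 (0.62 ± 0.14, limma adjusted p = 0.00655), although ubp12ubp13 was lower than UBP13oe (-0.74 ± 0.14, limma adjusted p = 0.00302). CRY2oe was lower than cry2-1 (-0.60 ± 0.14, limma adjusted p = 0.0125), a call lost without cry2-1 replicate 2 or either CRY2oe library (limma adjusted p of up to 0.0845).

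VSP1 (AT5G24780, chromosome 5, 8507590 to 8508957) was at 2.06 and 0.979 FPKM for WT, 1.02 and 0.797 for cry2-1, 0.463 and 0.664 for CRY2oe, 1.04 and 0.977 for UBP13oe and 0.592 and 0.802 for ubp12ubp13, and WT replicate 1 was the only library above 1.1 FPKM. The differences from WT in CRY2oe (-0.66 ± 0.20, limma adjusted p = 0.0447) and ubp12ubp13 (-0.54 ± 0.20, limma adjusted p = 0.0482) were lost without any library other than WT replicate 2 (limma adjusted p of up to 0.183) and without any library other than WT replicate 2 (limma adjusted p of up to 0.285). Without WT replicate 1 they were -0.34 and -0.22, and without WT replicate 2 the second was -0.85. The F test gave a limma adjusted p of 0.0919. By estimate, VSP1 had only 14.0 and 20.6 fragments in CRY2oe and 16.8 and 14.0 in ubp12ubp13. VSP1 and VSP2 share 90.4% of their coding bases, and their summed level was 3.13 and 1.86 FPKM for WT, 2.37 and 2.67 for cry2-1, 1.19 and 1.38 for CRY2oe, 4.66 and 5.50 for UBP13oe, and 2.42 and 3.05 for ubp12ubp13.

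A wider list of 43 jasmonate genes, outside the 35, held supply, transport, turnover and response genes, of which 27 were tested. Against WT, 14 were higher and 5 lower in cry2-1, with 8 and 4 for CRY2oe, 10 and 1 for UBP13oe, and 9 and 10 for ubp12ubp13. Of the 27 that was 51.9% and 18.5% in cry2-1, 29.6% and 14.8% in CRY2oe, and 37.0% and 3.70% in UBP13oe. In ubp12ubp13 it was 33.3% and 37.0%. These stand beside the shares of all genes given above. CRY2oe had 4 higher and 8 lower than cry2-1, and ubp12ubp13 had 6 higher and 14 lower than UBP13oe. After rescaling, the counts against WT were 6 and 6 for cry2-1, 4 and 5 for CRY2oe, 4 and 4 for UBP13oe, and 8 and 13 for ubp12ubp13. Higher calls then outnumbered lower calls in no genotype, beside the rescaled shares of all genes given above. CRY2oe against cry2-1 then had 5 and 5, and ubp12ubp13 against UBP13oe 6 and 12. Leaving out a library lowered the counts most for cry2-1, to 9 and 3 without cry2-1 replicate 2, for CRY2oe, to 3 and 2 without CRY2oe replicate 2, and for CRY2oe against cry2-1, to 2 and 4 without CRY2oe replicate 2. Those named are among the genes with the smallest p in each comparison.

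FAD7 and FAD8, the plastid desaturases that make linolenic acid, were called in the same direction in cry2-1, UBP13oe and ubp12ubp13. FAD7 was at 93.4 and 94.3 FPKM for WT, 77.8 and 81.0 for cry2-1, 104 and 105 for CRY2oe, 127 and 127 for UBP13oe and 189 and 203 for ubp12ubp13. FAD8 was at 13.4 and 12.7 FPKM for WT, 8.82 and 8.21 for cry2-1, 17.4 and 16.4 for CRY2oe, 22.5 and 22.5 for UBP13oe and 30.4 and 29.0 for ubp12ubp13. It overlaps the locus AT5G05590, so its fragments are not certain to be its own. FAD8 was lower in cry2-1 (-0.56 ± 0.06, limma adjusted p = 0.000185) and higher in the other 3 genotypes than in WT (0.35 ± 0.06, limma adjusted p = 0.00454 in CRY2oe, 0.74 ± 0.06, limma adjusted p = 0.000107 in UBP13oe and 1.13 ± 0.06, limma adjusted p = 2.09e-06 in ubp12ubp13). FAD7 was lower in cry2-1 (-0.24 ± 0.04, limma adjusted p = 0.00328) and higher in UBP13oe (0.43 ± 0.04, limma adjusted p = 0.000285) and in ubp12ubp13 (1.05 ± 0.04, limma adjusted p = 9.4e-07), where both libraries lay above all others. After rescaling the FAD7 differences were -0.39, limma adjusted p = 0.000296 in cry2-1 and 0.26, limma adjusted p = 0.00323 in UBP13oe. Its difference in CRY2oe was 0.16 ± 0.04, limma adjusted p = 0.0348, and it was lost after rescaling (0.07, limma adjusted p = 0.249).

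KAT2, the thiolase of the final peroxisomal step, was at 187 and 196 FPKM for WT, 194 and 190.1 for cry2-1, 167 and 175 for CRY2oe, 145 and 147 for UBP13oe and 111 and 120.1 for ubp12ubp13. It was lower than in WT in UBP13oe (-0.39 ± 0.05, limma adjusted p = 0.00076) and in ubp12ubp13 (-0.72 ± 0.05, limma adjusted p = 9.85e-06). In CRY2oe it differed by -0.16 ± 0.05, limma adjusted p = 0.0455, a call lost without any library other than ubp12ubp13 replicate 1 and ubp12ubp13 replicate 2 (limma adjusted p of up to 0.213). Among the genes of turnover, the sulfotransferase gene ST2A was at 78.2 and 104 FPKM for WT, 168 and 155 for cry2-1, 43.7 and 35.8 for CRY2oe, 93.7 and 85.9 for UBP13oe and 17.9 and 16.8 for ubp12ubp13. It was higher than in WT in cry2-1 (0.83 ± 0.14, limma adjusted p = 0.00175) and lower in CRY2oe (-1.17 ± 0.14, limma adjusted p = 0.00127) and in ubp12ubp13 (-2.31 ± 0.14, limma adjusted p = 4.14e-06).

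CYP94B1, a hydroxylase of the isoleucine conjugate, was at 48.4 and 42.7 FPKM for WT, 33.0 and 31.9 for cry2-1, 26.3 and 24.2 for CRY2oe, 38.4 and 41.4 for UBP13oe and 19.7 and 21.1 for ubp12ubp13. It was lower than in WT in cry2-1 (-0.48 ± 0.07, limma adjusted p = 0.00144), CRY2oe (-0.83 ± 0.07, limma adjusted p = 0.00048) and ubp12ubp13 (-1.12 ± 0.07, limma adjusted p = 7.9e-06). ILL6, an amidohydrolase that cleaves the conjugate, was at 14.1 and 12.5 FPKM for WT, 17.1 and 16.9 for cry2-1, 12.3 and 12.4 for CRY2oe, 15.7 and 17.1 for UBP13oe and 9.10 and 8.72 for ubp12ubp13. It was lower in CRY2oe than in cry2-1 (-0.43 ± 0.07, limma adjusted p = 0.00192) and lower in ubp12ubp13 than in UBP13oe (-0.81 ± 0.07, limma adjusted p = 4.17e-05).

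CLH1, a chlorophyllase known to be jasmonate-induced, was at 5.65 and 5.57 FPKM for WT, 8.37 and 10.1 for cry2-1, 8.11 and 8.71 for CRY2oe, 12.9 and 14.2 for UBP13oe and 29.4 and 28.2 for ubp12ubp13. It was higher than in WT in all 4 other genotypes (0.62 ± 0.09, limma adjusted p = 0.000857 in cry2-1, 0.51 ± 0.09, limma adjusted p = 0.00559 in CRY2oe, 1.14 ± 0.09, limma adjusted p = 0.000107 in UBP13oe and 2.17 ± 0.09, limma adjusted p = 8.41e-07 in ubp12ubp13), and the ubp12ubp13 libraries were the highest. JAM2, a bHLH repressor that competes with the MYC factors, was at 6.72 and 6.51 FPKM for WT, 10.3 and 10.3 for cry2-1, 8.42 and 9.24 for CRY2oe, 7.31 and 8.16 for UBP13oe and 11.3 and 11.1 for ubp12ubp13. It was higher than in WT in cry2-1 (0.57 ± 0.07, limma adjusted p = 0.000493), CRY2oe (0.37 ± 0.07, limma adjusted p = 0.00842) and ubp12ubp13 (0.68 ± 0.07, limma adjusted p = 8.86e-05), and the CRY2oe call was lost without CRY2oe replicate 2 (limma adjusted p of up to 0.0639).

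The other genes named by that rule changed less, apart from OPR1. ACX5, an acyl-CoA oxidase related to ACX1, and TPL, a corepressor that JAZ proteins recruit, were higher in cry2-1 than in WT (0.53 ± 0.06, limma adjusted p = 0.000381 and 0.28 ± 0.04, limma adjusted p = 0.000547). After rescaling the TPL difference was 0.13, limma adjusted p = 0.0308. OPR1, a relative of OPR3, was higher in CRY2oe than in WT (0.90 ± 0.14, limma adjusted p = 0.00344). IAR3, an amidohydrolase, and JAM1, a relative of JAM2, were higher in UBP13oe than in WT (0.38 ± 0.08, limma adjusted p = 0.00533 and 0.41 ± 0.09, limma adjusted p = 0.00621), and IAR3 was not called after rescaling (0.21, limma adjusted p = 0.0546), while JAM1 was (0.25, limma adjusted p = 0.0405). The basic chitinase gene CHIB, a defence gene, was lower in CRY2oe than in cry2-1 (-0.54 ± 0.06, limma adjusted p = 0.000275) and lower in ubp12ubp13 than in UBP13oe (-0.44 ± 0.06, limma adjusted p = 0.000462). CHIB overlaps the locus AT3G12502 and TPL the locus AT1G15740, so their fragments are not certain to be their own.

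**Figure D4:**
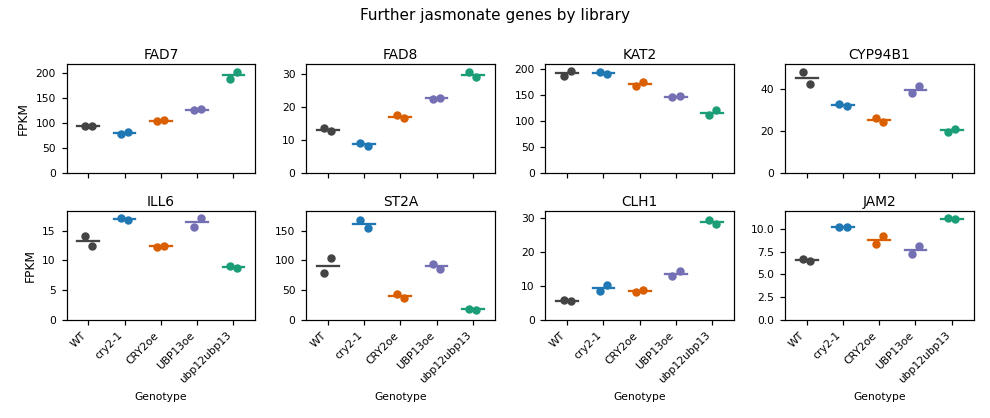
FPKM of 8 further jasmonate genes in each library (points) with the mean of each genotype (bars), n = 2 libraries a genotype. CLH1 is highest in ubp12ubp13, and FAD8 is lowest in cry2-1, where it was called lower than in WT.

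Markers of tissues differed between genotypes beside these results. The summed level of 5 green tissue markers was 12666 and 11500.0 FPKM for WT, 9355 and 9858 for cry2-1, 15761 and 15552 for CRY2oe, 14362 and 13904 for UBP13oe, and 28411 and 27348 for ubp12ubp13, and none was listed at 0. Against WT, 3 of the 5 were lower in cry2-1, beside 11.8% of all genes, and 4 were higher in CRY2oe, beside 16.5%. In UBP13oe 3 were higher and 1 lower, beside 35.2% and 8.74%, and in ubp12ubp13 5 were higher, beside 34.6%. The summed level of 9 root markers was 402 and 393 for WT, 712 and 689 for cry2-1, 255 and 278 for CRY2oe, 567 and 540.0 for UBP13oe, and 241 and 237 for ubp12ubp13, and none was listed at 0. Most of the root sum in WT came from the endodermis genes CASP1, CASP2, CASP5 and ESB1, at means of 121, 51.3, 73.4 and 109 FPKM. The other root markers had means above WT in CRY2oe, though none was called higher. In cry2-1 the means of RHD6, EXPA7, NRT2.1 and WOX5 lay below WT and that of the remaining marker above. Of the 9, 4 were higher in cry2-1 and 4 were lower in CRY2oe, each against WT, beside 31.7% and 9.63% of all genes. In UBP13oe 5 were higher than in WT, beside 35.2%. In ubp12ubp13 2 were higher and 5 lower, beside 34.6% and 22.2%. The 2 higher in ubp12ubp13 were the expansin gene EXPA7, at 11.9 ± 0.359 against 5.74 ± 3.02 FPKM, and the nitrate transporter gene NRT2.1, at 1.34 ± 0.538 against 0.271 ± 0.0588 FPKM (mean ± SD). NRT2.1 reached 1 FPKM only in UBP13oe, at 1.01 and 1.06, and in ubp12ubp13 replicate 2, at 1.72. These genotypes alone brought NRT2.1 past the filter, so its differences from WT there are a description. The 6 flower markers summed to 0.433 to 2.53 FPKM and the 8 seed markers to 2.56 to 29.6, highest in WT replicate 1. Of the seed markers 4 were tested, and 0 were higher than in WT in any genotype. Lower than WT were 4 in UBP13oe, 2 in CRY2oe, 1 in cry2-1 and 1 in ubp12ubp13, beside 8.74%, 9.63%, 11.8% and 22.2% of all genes. Among them, CRA1 reached 1 FPKM only in WT replicate 1 and ubp12ubp13 replicate 2, so its differences are a description. The part of these tissue differences in the jasmonate results was not tested.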

How the data were processed

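RNA of 10 libraries was measured, and each library has a table of FPKM values that the authors estimated for 33557 genes, per the file headers. The TAIR10 genome, the aligner STAR (no version stated) and Cufflinks 2.1.1 are named in the submitters' processing notes. No source used here says if strand entered the estimates. Gene coordinates follow the files (TAIR10, counted from 1), and promoter windows use RefSeq gene starts (build TAIR10.1).

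The 35 loci and the other gene lists were chosen with earlier results of these data known. The 15 entries at 10 loci that the files mark as failed or skipped were treated as missing, and none is among the 35. A count test was left out because FPKM are not counts. Depth came from 4742 intronless genes of 800 to 4000 bp, where 96.4% to 99.2% of the values of up to 6 fragments came out whole within 0.1 fragment at a length offset of 220 bp. A floor of 3 fragments is 0.0959 to 0.189 FPKM for a gene of 1 kb and covers counting error only.

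Genes with at least 1 FPKM in 2 libraries were kept. Values were tested as log2(FPKM + 1) with limma 3.58.1 (R 4.3.3) in a limma-trend fit of all 10 libraries with a mean per genotype (5 residual degrees of freedom), for 6 comparisons and an F test, with two-sided p-values and Benjamini-Hochberg adjustment over all genes. The method was run on simulated data with noise set by the spread of these libraries. Changes were put only into genes well above the filter, so low genes among the 35 are not covered. Tables and figures used Python 3.11.15 with pandas 2.3.3, numpy 2.4.6, matplotlib 3.10.9 and Biopython 1.88. Values are given by library for every one of the 35 called in a comparison, and from the wider list up to 6 genes with the smallest p in each comparison could be named. Alternatives were a pseudocount of 0.1 FPKM, no filter, a mean of at least 5 FPKM, median-of-ratios rescaling, the replicate number as a block, a separate fit for the libraries of each comparison, and leaving out each library.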

Additional observations from a re-analysis of the deposited data

How the results depend on the processing

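No call of a jasmonate gene changed direction under any alternative run, and of 70 calls over the 6 comparisons 68 were kept with a pseudocount of 0.1 FPKM, 65 without a filter, 61 after rescaling, 64 with the replicate block and 59 in a fit of only the libraries compared. With a mean of at least 5 FPKM, all 50 calls of genes still tested were kept. The 70 include calls of LOX2, LOX3 and CYP94C1, which are descriptions only. Of genes called lower against WT, cry2-1 had 1, with 2 without a filter and 6 after rescaling. CRY2oe had 2, with 1 without a filter, 1 at a mean of 5 FPKM, 1 in the fit of only the libraries compared and 4 after rescaling. UBP13oe had 0, with 2 after rescaling and 1 with the replicate block, and ubp12ubp13 had 4, with 2 at a mean of 5 FPKM and 7 after rescaling. Of genes called higher, CRY2oe against cry2-1 had 1, with 2 at a mean of 5 FPKM, 4 after rescaling and 2 with the block, and ubp12ubp13 against UBP13oe had 8, with 5 at a mean of 5 FPKM and 5 in the fit of only the libraries compared. Leaving out each library in turn, higher and lower calls ranged over 5 to 7 and 1 to 2 in cry2-1, 1 to 4 and 1 to 2 in CRY2oe, 9 to 15 and 0 to 1 in UBP13oe, 11 to 17 and 3 to 4 in ubp12ubp13, 1 to 3 and 4 to 7 in CRY2oe against cry2-1, and 3 to 8 and 6 to 9 in ubp12ubp13 against UBP13oe, and F test calls over 22 to 27. Same-numbered replicates deviated together with correlations of -0.0884 to 0.146, so the numbers were not taken as pairs. Over all genes, counts of higher and lower calls were 6331 and 2363 in cry2-1, and 3211 and 4125 after rescaling. In CRY2oe they were 3302 and 1922, with 2075 and 3137 after rescaling, 1298 and 896 in the fit of only the libraries compared, 1561 and 1099 without CRY2oe replicate 1 and 1280.0 and 864 without CRY2oe replicate 2. In UBP13oe they were 7023 and 1744, with 3425 and 3958 after rescaling and 4437 and 1156 without UBP13oe replicate 2. CRY2oe against cry2-1 had 4785 lower calls, and 3143 without cry2-1 replicate 1. The cause of these shifts was not tested. Depth limits LOX2, JMT, JAZ5 and JAZ8, and also JAZ7 in ubp12ubp13 (15.7 and 7.1 estimated fragments) and VSP1 in CRY2oe (14.0 and 20.6) and ubp12ubp13 (16.8 and 14.0). By estimate, JMT and JAZ8 stayed under the floor of 3 fragments in every library and JAZ5 was at 3.3 to 13.1. LOX2 was at 2.3 to 9.1 fragments in WT, cry2-1 and CRY2oe. Having 2 libraries a genotype limits every test.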

Other observations

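The loci beside the AOC cluster on chromosome 3 were looked up after the AOC2 values had been seen. AT3G25740 and AT3G25800 were called in none of the 4 comparisons against WT, and AT3G25750 was listed at 0 in all 10 libraries. AT3G25730 was at 3.48 and 2.9971 FPKM for WT, 5.74 and 6.61 for cry2-1, 3.87 and 4.14 for CRY2oe, 5.30 and 4.01 for UBP13oe and 5.46 and 5.47 for ubp12ubp13. Its level was above WT in cry2-1 (0.76 ± 0.12, limma adjusted p = 0.00165) and ubp12ubp13 (0.61 ± 0.12, limma adjusted p = 0.00305), and its call in UBP13oe (0.41 ± 0.12, limma adjusted p = 0.0266) was lost without WT replicate 2 or UBP13oe replicate 1 (limma adjusted p of up to 0.159) and after rescaling. AT3G25790 was at 2.54 and 2.29 FPKM for WT, 5.21 and 4.08 for cry2-1, 3.87 and 3.75 for CRY2oe, 7.48 and 7.39 for UBP13oe and 3.19 and 3.97 for ubp12ubp13. Its level was above WT in cry2-1 (0.72 ± 0.12, limma adjusted p = 0.00187) and UBP13oe (1.31 ± 0.12, limma adjusted p = 0.00019), while its calls in CRY2oe (0.50 ± 0.12, limma adjusted p = 0.0188) and ubp12ubp13 (0.42 ± 0.12, limma adjusted p = 0.0159) were lost without WT replicate 2 or either CRY2oe library (limma adjusted p of up to 0.0869) and without WT replicate 2 or ubp12ubp13 replicate 2 (limma adjusted p of up to 0.0997). In cry2-1, where AOC2 was lower than in WT, both of these neighbours were higher.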
